A study of Mus musculus with 29 samples.

Results

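Transcripts of 7 genes of cholesterol synthesis, Hmgcs1, Idi1, Fdft1, Sqle, Dhcr7, Insig1 and Srebf2, were followed across 29 mouse brain libraries sequenced as poly(A) RNA. They were chosen by symbol: each name was matched to its Ensembl identifier, and each matched 1 of the 25746 genes counted. All 7 were among the 17031 genes with enough reads to be tested. The labels give 4 control samples of wildtype mice (WT, C57BL/6J) and 4 samples of WT mice with a photothrombotic stroke of the right sensorimotor cortex. A further 3 stroked WT mice received the calcineurin inhibitor tacrolimus from the day of stroke (WT-Tacr, labelled WT_IM) and 5 received it from 7 days after stroke (WT-Tacr delayed, labelled WT_IM_del). Rag2-/- mice (labelled RAG), which lack mature T and B cells, gave 3 non-stroked and 3 stroked libraries. NSG mice, which lack T, B and NK cells and carry these defects on a NOD background, gave 4 non-stroked and 3 stroked libraries, so that immune defect and strain background cannot be told apart in them. Mice of both sexes were 3 months old and stroked tissue was taken at 21 days post injury (dpi). The labels call the reference samples only Ctrl. The study's methods describe control tissue from the contralesional site and its results naive mice, and the methods give other mouse numbers than the labels, so it is not known whether a reference sample is another mouse or the other hemisphere of a stroked one. They are called non-stroked here, and every stroke comparison carries this limit. The non-stroked WT samples carry no tacrolimus label and served as reference for WT, WT-Tacr and WT-Tacr delayed alike, since non-stroked tacrolimus samples were not analysed here. Those 3 comparisons therefore share their 4 control libraries.

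Cholesterol is built from acetyl-CoA through mevalonate, isoprenoid units, squalene and lanosterol. The blood-brain barrier holds back circulating lipoproteins, so the brain makes its own cholesterol, in oligodendrocytes for myelin and in astrocytes and neurons for their membranes. Most enzymes of the pathway are controlled together: the transcription factor SREBP-2, the product of Srebf2, is carried from the endoplasmic reticulum by SCAP when sterols are low and then switches on the enzyme genes and Insig1. INSIG proteins hold SCAP in place when sterols are high, so Insig1 is both a target and a brake of the same circuit.

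The promoters of 5 members could be read from RefSeq windows (GRCm38.p6) that run from 250 bases before to 50 bases after an annotated start, with 7 windows in all because Dhcr7 has several starts; Fdft1 and Sqle are named only. Both strands were searched for a sterol regulatory element written TCACNCCAC, its shorter form CACNCCAC that lies inside it, the E box CACGTG, the NF-Y box CCAAT and the Sp1 box GGGCGG. The longer element was in 1 of these 5 genes, Hmgcs1, and in 1.44% of the 27025 genes with a window, and the shorter one was in Hmgcs1 and Insig1 and in 7.12% of genes. The E box was in Insig1 and Dhcr7 (8.09% of genes). CCAAT and GGGCGG were each in a window of all 5 genes, against 41.1% and 38.2% of genes, and in Dhcr7 the CCAAT box was in the third of its windows. Stretches of 150 bases from 3 of these promoters are shown, those of the first enzyme of the group, of the feedback gene and of the transcription factor gene, because the members were compared as a co-regulated set; capitals mark matches to the letters above on either strand.
Hmgcs1, chr13:119690201-119690350, + strand: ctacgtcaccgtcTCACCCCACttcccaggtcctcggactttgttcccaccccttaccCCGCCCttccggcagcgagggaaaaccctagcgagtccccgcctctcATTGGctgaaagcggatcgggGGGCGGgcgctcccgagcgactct
Insig1, chr5:28071213-28071362, + strand: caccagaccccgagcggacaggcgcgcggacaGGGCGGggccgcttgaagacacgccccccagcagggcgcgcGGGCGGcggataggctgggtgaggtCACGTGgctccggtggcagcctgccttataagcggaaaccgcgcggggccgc
Srebf2, chr15:82147031-82147180, + strand: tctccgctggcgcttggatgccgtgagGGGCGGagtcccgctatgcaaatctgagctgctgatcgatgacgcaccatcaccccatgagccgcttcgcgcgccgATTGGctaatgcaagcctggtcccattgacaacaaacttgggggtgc
In Hmgcs1 the sterol element TCACCCCAC lay from 137 to 129 bases before the start and a CCAAT box (ATTGG on this strand) from 45 to 41 bases before it. In Insig1 the E box lay from 101 to 96 bases before the start. The Srebf2 window held neither sterol element nor E box in the letters searched. A match of letters is a description and says nothing of binding in these samples.

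Libraries held 17789044 to 43403413 counts. By their titles 20 belonged to a cohort called Imm2 (median 37223696 counts) and 9 to a cohort called TF (median 23155303), and all non-stroked libraries were Imm2, as were both stroked immunodeficient strains. The TF cohort held 2 of 4 stroked WT, 2 of 3 WT-Tacr and 5 of 5 WT-Tacr delayed libraries, so the delayed group meets the non-stroked samples only across cohorts, and a fit with cohort as a covariate takes the cohort difference from the other stroked groups. In 2 WT-Tacr libraries, 5m_1 and 1_5, the deposited file carries another name than the title. They held 267 and 189 CPM (reads of a gene scaled to the library's depth) of Gfap, the intermediate filament gene of reactive astrocytes, against 102 to 172 CPM in non-stroked WT samples, 765 to 1144 in stroked WT mice and 928 in the WT-Tacr library 2_1. In other mice the study's histology gave lower GFAP and Iba1 (microglia and macrophage) protein signals near the infarct with tacrolimus than without. It gave lower signals in Rag2-/- and NSG mice as well. Gfap RNA was not lower here in stroked Rag2-/- or NSG than in stroked WT mice (0.31 and 0.40 on the log2 scale, edgeR adjusted p = 0.811 and 0.469). Because of the file names and Gfap levels of 5m_1 and 1_5, the members' comparisons with WT-Tacr are given with and without these libraries. The enzyme counts of WT-Tacr are given with them only. Marker genes of cortical projection neurons were detected in every library, and summed choroid plexus markers, a tissue outside the cortex, ranged from 4.04 to 1549 CPM between libraries, within both stroked and non-stroked groups.

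With cohorts pooled, all fitted levels of the cholesterol genes were lower after stroke in every group of mice, but not all differences passed. The WT-Tacr calls were lost in several fits, and Fdft1 changed sign in some of them, as given below. Of the 35 fitted differences between stroked and non-stroked samples (7 genes in 5 comparisons), 35 were negative, and 29 passed an adjusted p of 0.05 by edgeR's quasi-likelihood test. In 31 the ranges of the stroked and non-stroked libraries did not overlap. Over the 5 comparisons 1.53% to 27.6% of all genes were called lower, and 19.6% to 54% had ranges apart. The WT, WT-Tacr and WT-Tacr delayed comparisons share their non-stroked libraries, so the 35 are not separate results. Hmgcs1, Sqle, Dhcr7 and Insig1 passed as lower in 5 of 5 comparisons, Srebf2 in 4, Idi1 in 3 and Fdft1 in 2. In WT mice 7 of 7 members fell, where 11.6% of all genes tested were called lower, and the median member was 28.0% lower. Within the Imm2 cohort 6 of the 7 passed in WT mice, with a median of -0.42 on the log2 scale, where 2.2% of all genes were called lower. In Rag2-/- mice 5 of 7 fell (1.53% of all genes) with a median of -0.48 on the log2 scale, and in NSG mice 6 of 7 (8.89% of all genes) with a median of -0.38. The median over all genes tested was within 0.03 of 0 on the log2 scale in these 3 comparisons. The ranges did not overlap for 7 members in WT and 7 in Rag2-/- mice, against 29.8% and 35.7% of all genes, and for 6 in NSG mice, against 25% of all genes. With cohorts pooled, the fall of every member was below a 2-fold change in every comparison. With cohort as a covariate, Idi1 was at -1.05 on the log2 scale in WT-Tacr delayed mice.

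**Figure D1:**
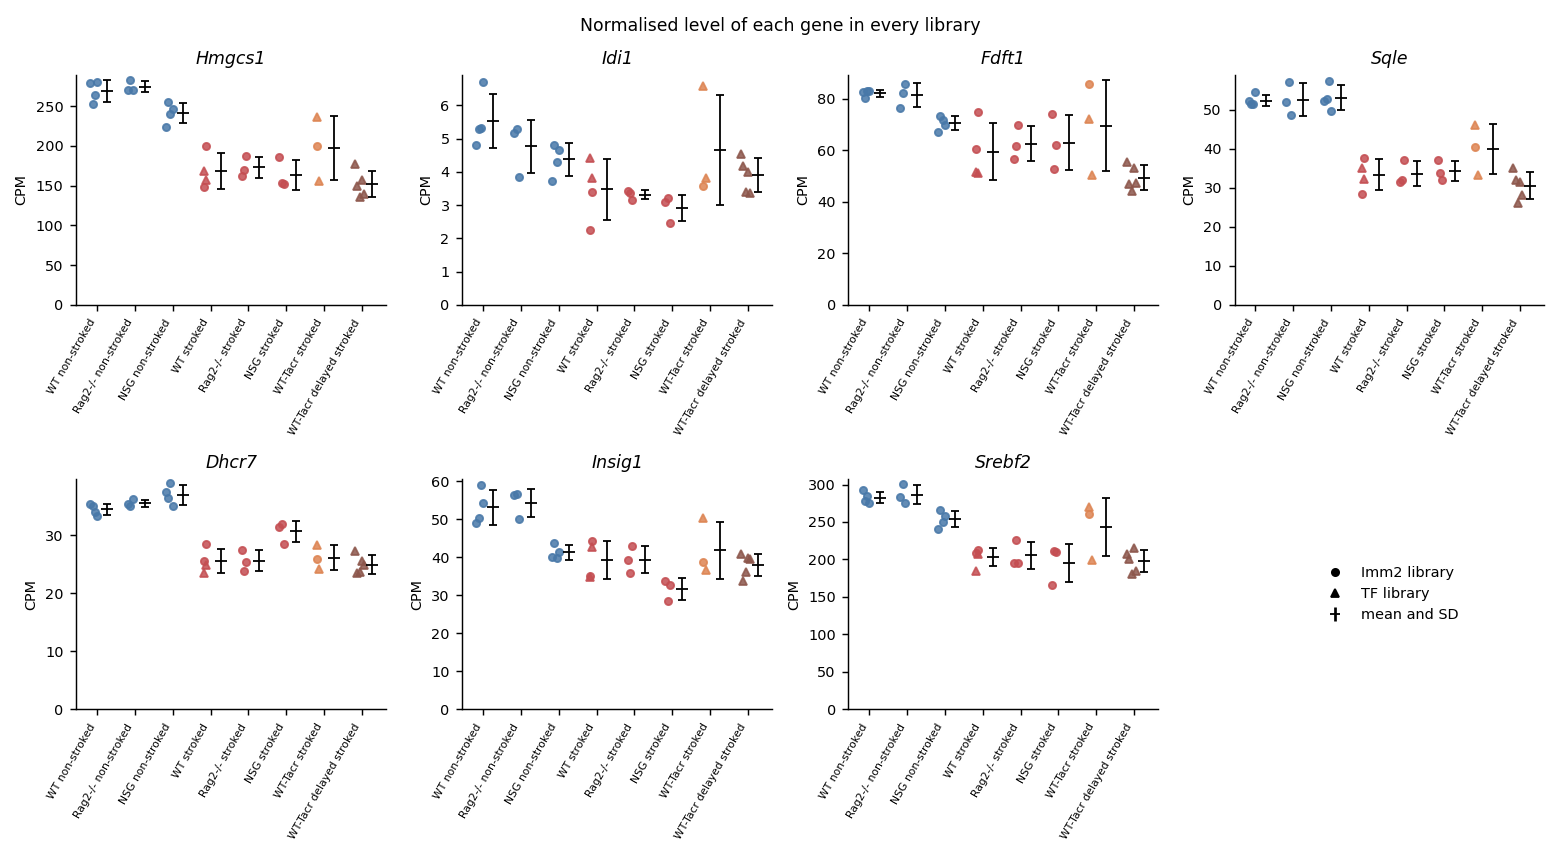
Level of each of the 7 genes in CPM, that is counts scaled to library size (vertical axis, from 0, one panel per gene) in the 29 libraries by group (horizontal axis), with circles for cohort Imm2, triangles for cohort TF and a black bar with whiskers for the group mean and SD. Stroked WT, Rag2-/- and NSG libraries lie below their non-stroked groups for 6 of the 7 genes, with Fdft1 overlapping in NSG mice, and the WT-Tacr group spreads most widely.

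The first of these enzymes in the pathway, Hmgcs1 (ENSMUSG00000093930, chr13:119690379-119708260, + strand, GRCm38), encodes the cytosolic synthase that makes HMG-CoA early in the pathway. It was at 253, 263, 279 and 280 CPM in non-stroked WT samples and at 149, 157, 169 and 200.2 CPM in stroked ones. In Rag2-/- mice the values were 270.0, 271 and 282 CPM without and 162, 169 and 188 CPM with stroke, and in NSG mice 224, 240.1, 247 and 255 CPM without and 152, 153 and 186 CPM with stroke. No stroked library reached its non-stroked group in any of these genotypes. On the log2 scale Hmgcs1 changed by -0.68 with stroke for the WT genotype (SE 0.108, edgeR adjusted p = 0.000107), by -0.66 for Rag2-/- (edgeR adjusted p = 0.00178) and by -0.56 for NSG (edgeR adjusted p = 0.00175).

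Idi1 (ENSMUSG00000058258, chr13:8885501-8892451, + strand) encodes the isomerase that interconverts the 5-carbon isoprenoid units and was the lowest of the members, with 68 to 244 reads per library. It was at 4.81, 5.28, 5.33 and 6.71 CPM in non-stroked and 2.25, 3.39, 3.82 and 4.43 CPM in stroked WT mice. Rag2-/- mice held 3.84, 5.18 and 5.29 CPM without and 3.16, 3.35 and 3.41 CPM with stroke, and NSG mice 3.71, 4.31, 4.67 and 4.82 CPM without and 2.48, 3.09 and 3.21 CPM with stroke. The ranges were apart in all 3 genotypes. In stroked WT mice Idi1 fell by 0.68 on the log2 scale (SE 0.19, edgeR adjusted p = 0.0107) and by 0.58 in NSG mice (edgeR adjusted p = 0.0471). It did not pass in Rag2-/- mice (-0.53, edgeR adjusted p = 0.151), and the NSG call was lost without stroked library 1f_1 or 1m_3 or non-stroked library 2, 3 or 4 (edgeR adjusted p from 0.0729 to 0.128). Of its possible 50-base reads 25.3% also occur in another gene, 17.7% in the pseudogene Gm13502, so part of its count is uncertain.

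Fdft1 (ENSMUSG00000021273, chr14:63145150-63179578, - strand) encodes squalene synthase, which commits isoprenoids to sterols, and passed in the fewest stroke comparisons of the members. Non-stroked WT mice held 80.1, 82.4, 82.9 and 83.1 CPM and stroked WT mice 51.0, 51.5, 60.6 and 74.7 CPM. The 2 lowest stroked values were the TF libraries. Fdft1 fell in WT mice with cohorts pooled (log2 fold change -0.46, SE 0.128, edgeR adjusted p = 0.00989), but within the Imm2 cohort the difference was -0.27 (edgeR adjusted p = 0.145) and with cohort as a covariate -0.26 (edgeR adjusted p = 0.142). It was at 76.4, 82.3 and 85.6 CPM in non-stroked and 56.6, 61.6 and 69.6 CPM in stroked Rag2-/- mice (-0.38, edgeR adjusted p = 0.121, and 0.036 with cohort as a covariate). In NSG mice it was at 67.0, 69.8, 71.5 and 73.3 CPM without and 52.9, 61.8 and 74.2 CPM with stroke (-0.16, edgeR adjusted p = 0.424), and mouse 1f_1, at 74.2 CPM, lay above every non-stroked NSG library. Of the 50-base sequences of Fdft1, 26.5% also occur in another gene: 9.38% in Gm6781 on the same strand and 17.2% in Ctsb. Ctsb, a lysosomal protease gene, overlaps Fdft1 on the opposite strand. Ctsb itself rose after stroke by 0.65 on the log2 scale for the WT genotype, by 0.61 for Rag2-/- and by 1.01 for NSG (edgeR adjusted p = 0.00188, 0.0207 and 0.000107). The kit was stranded but the strand setting of the counting is not given in the sources used here. The part of Ctsb or Gm6781 reads in the Fdft1 values was not tested.

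Sqle (ENSMUSG00000022351, chr15:59315077-59331192, + strand) encodes squalene epoxidase, an oxygen-requiring and rate-limiting step, and passed as lower in every stroke comparison, though with WT-Tacr the call was lost in fits given with that group. It was at 51.4, 51.4, 52.1 and 54.4 CPM in non-stroked and 28.4, 32.2, 35.0 and 37.7 CPM in stroked WT mice. In Rag2-/- mice the values were 48.6, 52.0 and 57.2 CPM against 31.5, 32.1 and 37.2 CPM, and in NSG mice 49.8, 52.1, 52.7 and 57.4 CPM against 32.0, 33.9 and 37.1 CPM. The ranges were far apart in each genotype and the stroked levels of the 3 genotypes lay on top of each other. The difference on the log2 scale was -0.65 for WT (SE 0.1, edgeR adjusted p = 7.24e-05), -0.65 for Rag2-/- (edgeR adjusted p = 0.00121) and -0.63 for NSG (edgeR adjusted p = 0.000381).

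Dhcr7 (ENSMUSG00000058454, chr7:143823145-143848410, + strand) encodes 7-dehydrocholesterol reductase, which forms cholesterol in the last step of the Kandutsch-Russell branch. Non-stroked WT mice held 33.3, 34.0, 35.1 and 35.4 CPM and stroked WT mice 23.4, 24.8, 25.6 and 28.4 CPM, a fall of 0.43 on the log2 scale (SE 0.0696, edgeR adjusted p = 0.000114). Rag2-/- mice held 35.0, 35.4 and 36.2 CPM without and 23.9, 25.4 and 27.5 CPM with stroke (-0.47, edgeR adjusted p = 0.000828). NSG mice held 35.0, 36.5, 37.4 and 38.9 CPM without and 28.5, 31.5 and 32.0 CPM with stroke (-0.27, edgeR adjusted p = 0.013). Every stroked library was below its non-stroked group, and all 3 stroked NSG libraries were above all 7 stroked WT and Rag2-/- libraries.

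Among the regulators, Insig1 (ENSMUSG00000045294, chr5:28071363-28078662, + strand) was at 49.0, 50.2, 54.2 and 59.1 CPM in non-stroked and 34.8, 35.0, 42.7 and 44.2 CPM in stroked WT mice. Rag2-/- mice held 50.2, 56.3 and 56.7 CPM without and 35.8, 39.4 and 42.9 CPM with stroke, and NSG mice 39.8, 40.1, 41.3 and 43.9 CPM without and 28.4, 32.7 and 33.7 CPM with stroke. The NSG libraries lay below those of the other genotypes both without and with stroke, and in each genotype the stroked range lay below the non-stroked one. Insig1 fell by 0.44 on the log2 scale for WT (SE 0.0998, edgeR adjusted p = 0.00245), by 0.47 for Rag2-/- (edgeR adjusted p = 0.0116) and by 0.38 for NSG (edgeR adjusted p = 0.0138). The Rag2-/- call was lost without non-stroked library 1 or 2 or stroked library 4f_1 or 4m_3 (edgeR adjusted p from 0.0557 to 0.0598), and the NSG call without stroked library 1f_2 (edgeR adjusted p = 0.0571).

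Srebf2 (ENSMUSG00000022463, chr15:82147181-82205379, + strand), the gene of SREBP-2 and itself an SREBP-2 target, moved in the same direction as the enzymes. It was at 275, 278, 285 and 292 CPM in non-stroked and 185, 207, 209 and 212 CPM in stroked WT mice, a fall of 0.47 on the log2 scale (SE 0.0897, edgeR adjusted p = 0.000487). Rag2-/- mice held 276, 283 and 301 CPM without and 195, 196 and 226 CPM with stroke (-0.48, edgeR adjusted p = 0.00434), and NSG mice 241, 249.6, 259 and 267 CPM without and 166, 209 and 211 CPM with stroke (-0.38, edgeR adjusted p = 0.00798). No ranges overlapped, and the NSG call was lost without stroked library 1f_1 (-0.28, edgeR adjusted p = 0.0808). When the NSG groups were fitted without the other groups, 2 of 7 members passed in place of 6, and 0.384% of all genes were called lower in place of 8.89%. Hmgcs1 (edgeR adjusted p = 0.0208) and Sqle (edgeR adjusted p = 0.00929) did, while Srebf2 (-0.37, edgeR adjusted p = 0.117), Dhcr7 (-0.27, edgeR adjusted p = 0.137), Insig1 (-0.39, edgeR adjusted p = 0.0595) and Idi1 (-0.58, edgeR adjusted p = 0.109) did not.

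**Figure D2:**
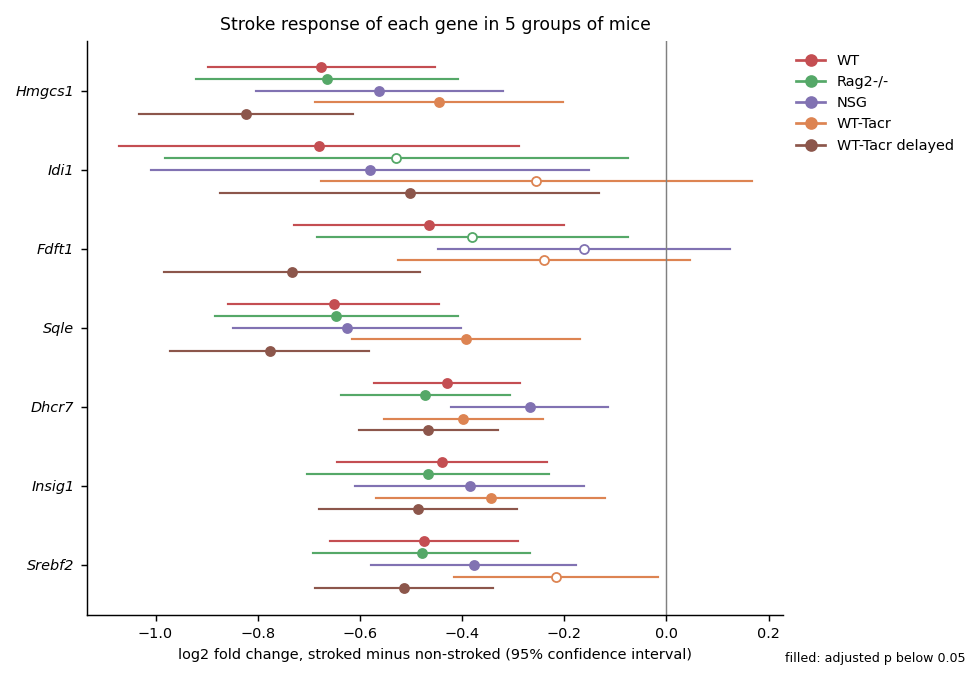
Log2 fold change between stroked and non-stroked samples (with 95% confidence interval) for each of the 7 genes in the 5 stroke comparisons, filled where the edgeR adjusted p was below 0.05. All 35 points lie below 0 and 29 are filled, and the intervals of WT, Rag2-/- and NSG mice overlap for every gene.

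In bulk tissue, fewer cells of a type and less RNA per cell cannot be told apart, and the cell makeup of these samples moved with stroke. Of 6 neuron markers 4 were lower in stroked WT mice (Rbfox3 -0.62, Snap25 -0.47, Nefl -0.37 and Syt1 -0.35 on the log2 scale), none passed in Rag2-/- and 1 in NSG mice, with list medians of -0.36, -0.33 and -0.27. Summed neuron markers were at 7151 to 7918 CPM in non-stroked and at 4800 to 6561 CPM in stroked WT mice, without a marker at 0. Stroked WT libraries held 6561 and 6372 CPM in Imm2 and 4800 and 5214 CPM in TF. Stroked Rag2-/- and NSG libraries, all Imm2, held 5109 to 6577 and 5352 to 5943 CPM. In stroked WT mice macrophage markers summed to 133 and 164 CPM in Imm2 and 353 and 507 CPM in TF. Cortical projection neuron markers summed to 550 and 550 against 309 and 275 CPM. The pooled WT marker counts thus mix cohorts. Of 6 cortical projection neuron markers 3 were lower in WT and none passed in Rag2-/- or NSG mice. Of 6 markers each, microglia had 5, 4 and 5 higher and macrophages 6, 5 and 4 higher in WT, Rag2-/- and NSG mice, and summed macrophage markers had medians of 9.86 CPM without and 258 CPM with stroke in WT mice. Astrocyte markers had 4, 3 and 2 of 6 higher, fibroblast markers 4 of 5 in each genotype, and endothelial markers 1 of 6 higher in each and 3 lower in WT mice. None of the 8 oligodendrocyte markers passed in WT, Rag2-/- or NSG mice (medians 0.28, 0.24 and 0.20), and none of 6 markers of oligodendrocyte precursors and none of 6 of choroid plexus did. Beside these, the members' medians were -0.47, -0.48 and -0.38. The part of cell makeup in the members' fall was not tested. Leaving out the 13 libraries above 100 CPM of choroid plexus markers left 1 to 3 libraries per group, with a single non-stroked NSG library assumed to vary like the other groups, and no member passed in WT, Rag2-/- or NSG mice, with medians of -0.41, -0.51 and -0.44 and with 0%, 0.00576% and 0.426% of all genes called lower. With the choroid level as a covariate 7, 5 and 5 members passed, where 13.3%, 0.84% and 9.39% of all genes were called lower.

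The genotypes were compared directly for the size of the stroke effect, as the study hypothesised that stroke pathology may differ in some aspects between models of immunosuppression. No member's change differed between Rag2-/- and WT mice (median difference 0.01 on the log2 scale), where 0% of all genes passed by edgeR, DESeq2 called no member and 713 genes had an unadjusted p under 0.05, and no member did. The 95% intervals still allow differences: for Hmgcs1 from -0.33 to 0.35, for Sqle from -0.31 to 0.32 and for Dhcr7 from -0.26 to 0.17. No member's change differed between NSG and WT mice either, where 0.0294% of all genes passed by edgeR, 2167 had an unadjusted p under 0.05 and DESeq2 called no member. All 7 differences were positive there, meaning a smaller fall in NSG mice, with a median of 0.10; the highest was Fdft1 at 0.30 (95% interval -0.08 to 0.69) and Dhcr7 followed at 0.16 (-0.05 to 0.37). These 7 values share 1 set of WT libraries and are not separate evidence of a direction.

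Among non-stroked samples 1 member passed between genotypes in the fit of all groups. The ranges of 3 members were apart between NSG and WT samples and of 4 between NSG and Rag2-/- samples, against 21.8% and 24.3% of all genes. These were Insig1, Fdft1 and Srebf2 in both, and Hmgcs1 against Rag2-/-. Insig1 was lower in non-stroked NSG than in non-stroked WT samples (-0.37 on the log2 scale, edgeR adjusted p = 0.0178) and than in Rag2-/- mice (-0.40, edgeR adjusted p = 0.0217), where 4.92% and 3.26% of all genes were called lower. Its 4 NSG values of 39.8 to 43.9 CPM lay below all 7 values of the other genotypes, 49.0 to 59.1 CPM. Both calls held with only the compared groups in the fit (edgeR adjusted p = 0.00824 and 0.00614) and missed the threshold when some libraries were left out, at differences of -0.35 and -0.31 against WT and of -0.38 to -0.36 against Rag2-/-. Without non-stroked NSG library 3 the adjusted p became 0.0559 against WT and 0.0643 against Rag2-/-, without WT library 4 it became 0.0784 against WT, and without Rag2-/- library 1 or 2 or NSG library 1 it became 0.105, 0.124 or 0.0554 against Rag2-/-, all by edgeR. In the fit of all groups the other 6 members did not pass against WT, with Hmgcs1 at -0.16 (95% interval -0.38 to 0.07) and Sqle at 0.02 (-0.19 to 0.22). Between non-stroked Rag2-/- and WT mice no member passed by edgeR or DESeq2 and no member had an unadjusted p under 0.05, where 0.00587% of all genes were called by edgeR, 0.0117% by DESeq2, and 349 had an unadjusted p under 0.05.

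Among stroked mice, Dhcr7 was higher in NSG than in WT mice by 0.26 on the log2 scale (edgeR adjusted p = 0.0218; 6.6% of all genes were called higher). The call did not hold within the Imm2 cohort (0.18, edgeR adjusted p = 0.295), with cohort as a covariate (0.22, edgeR adjusted p = 0.0868), with only these groups in the fit (0.27, edgeR adjusted p = 0.392), or without NSG libraries 1f_1 or 1f_2 or WT libraries 5_2 or 5_3 (edgeR adjusted p = 0.0717, 0.0577, 0.084 and 0.0642). Without these libraries in turn the difference was 0.25, 0.24, 0.22 and 0.25. Insig1 was lower by 0.31 and did not pass (edgeR adjusted p = 0.0591). DESeq2, and edgeR without WT library 2m_3, called 1 member higher and 1 lower in this comparison, where 7.65% and 9.4% of all genes were called higher and 7.75% and 8.65% lower. No member passed between stroked Rag2-/- and stroked WT mice by edgeR or DESeq2 and none had an unadjusted p under 0.05 (0.00587% of all genes called by edgeR, 0.0117% by DESeq2, 1196 genes with an unadjusted p under 0.05), with fitted differences from -0.06 in Idi1 to 0.07 in Fdft1.

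The members were widely spread over the 3 WT-Tacr libraries, which were labelled as given tacrolimus from the day of stroke. Against non-stroked WT samples 4 of 7 members were lower in WT-Tacr mice (2.36% of all genes): Hmgcs1 (-0.45, edgeR adjusted p = 0.0241), Sqle (-0.39, edgeR adjusted p = 0.029), Dhcr7 (-0.40, edgeR adjusted p = 0.00472) and Insig1 (-0.34, edgeR adjusted p = 0.0477). Srebf2 (-0.22, edgeR adjusted p = 0.148), Fdft1 (-0.24, edgeR adjusted p = 0.265) and Idi1 (-0.25, edgeR adjusted p = 0.433) did not pass, and 4 members had ranges apart from the non-stroked ones, against 19.6% of all genes. In WT-Tacr libraries 5m_1, 1_5 and 2_1 in that order, Hmgcs1 was at 199.7, 237 and 156 CPM, Sqle at 40.4, 46.0 and 33.3 CPM and Srebf2 at 260.2, 270.1 and 199 CPM. Fdft1 was at 85.7, 72.2 and 50.6 CPM, Dhcr7 at 25.9, 28.4 and 24.1 CPM, Insig1 at 38.6, 50.4 and 36.6 CPM, and Idi1 at 3.58, 6.58 and 3.82 CPM. The median member stood at 75.3%, 88.1% and 68.8% of the non-stroked WT mean in these mice, against 65.5% to 75.1% in the 4 stroked WT mice. Library 1_5 was thus nearest to non-stroked samples in 6 of the 7 genes, with Fdft1 nearer in 5m_1, and both 5m_1 and 1_5 carry the low Gfap given above. Other marker sums moved with this: in 5m_1, 1_5 and 2_1, macrophage markers summed to 30.2, 16.1 and 442 CPM (133 to 507 in stroked WT mice), fibroblast markers to 78.6, 54.4 and 339 CPM (242 to 536) and neuron markers to 7813, 7374 and 5551 CPM (4800 to 6561). Their part in the spread was not tested.

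The 4 calls depended on the libraries and on the fit. None of the 7 members passed within the Imm2 cohort (median -0.40, 1 WT-Tacr library), with cohort as a covariate, with only the 2 groups in the fit, or without library 2_1 (median -0.27), and 0%, 0.047%, 0.139% and 0.0348% of all genes were called lower in these 4 fits. With only the 2 groups the differences were -0.44 for Hmgcs1, -0.39 for Sqle, -0.40 for Dhcr7 and -0.34 for Insig1, close to the pooled ones. The count was 1 without non-stroked WT library 1 or 5 (0.476% and 0.74% of all genes lower), and 2 without non-stroked WT library 3 (1.22%). Without 5m_1 and 1_5 together the group held 1 library, which was assumed to vary like the other groups; 6 members then passed with a median of -0.53, where 7% of all genes were called lower. Fdft1 changed sign, to 0.03 with cohort as a covariate and 0.07 within Imm2.

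Stroked WT-Tacr and stroked WT mice showed no called member by edgeR (smallest adjusted p = 0.311) or DESeq2, where 0% of all genes passed by edgeR, 0.0117% by DESeq2 and 2168 had an unadjusted p under 0.05. All 7 differences were positive, with a median of 0.23 on the log2 scale, and 3 had an unadjusted p under 0.05: Idi1 at 0.43 (95% interval 0.00 to 0.85), Sqle at 0.26 (0.04 to 0.48) and Srebf2 at 0.26 (0.06 to 0.46). Without library 2_1, 3 members passed as higher, where 2.44% of all genes did, and without 5m_1 and 1_5 the median was -0.08. Within the TF cohort, 2 libraries against 2, the median was 0.23 and no member passed.

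**Figure D3:**
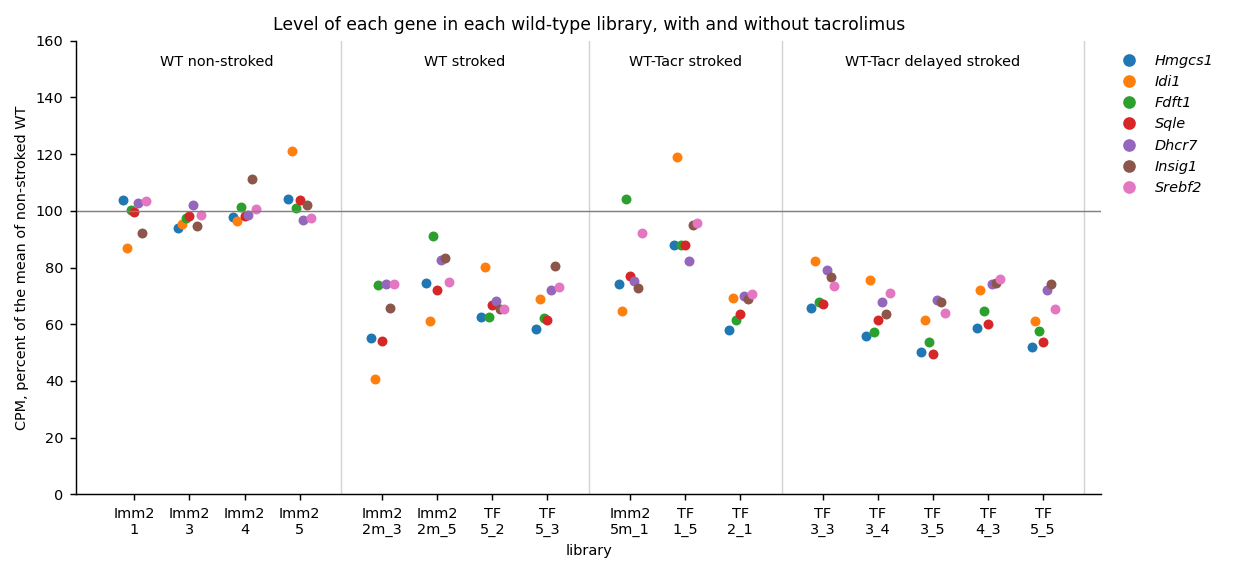
Each of the 7 genes in each library as a percent of its mean in non-stroked WT samples, for non-stroked WT, stroked WT, WT-Tacr and WT-Tacr delayed mice. Stroked WT libraries have medians between 65.5% and 75.1% and WT-Tacr delayed libraries between 61.0% and 73.5%, while WT-Tacr libraries run from 68.8% to 88.1%.

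With tacrolimus from 7 dpi every member was below non-stroked WT samples, as in stroked WT mice without the drug. Against non-stroked WT samples 7 of 7 members were lower in WT-Tacr delayed mice, where 27.6% of all genes were, and the ranges of 7 of 7 were apart, against 54% of all genes. Hmgcs1 was at 135, 140.1, 150.1, 158 and 177 CPM (log2 fold change -0.82, edgeR adjusted p = 1.14e-06). Sqle was at 26.0, 28.2, 31.4, 32.1 and 35.1 CPM (-0.78, edgeR adjusted p = 9.49e-07). Fdft1 was at 44.1, 47.0, 47.4, 53.0 and 55.6 CPM (-0.73, edgeR adjusted p = 2.85e-05), the lowest group mean of this gene, but with cohort as a covariate the difference was -0.30 and did not pass (edgeR adjusted p = 0.209). Dhcr7 (23.4 to 27.3 CPM, log2 fold change -0.47), Insig1 (33.7 to 40.8 CPM, -0.49) and Srebf2 (181 to 215 CPM, -0.51) fell as well (edgeR adjusted p = 4.72e-06, 0.000155 and 2.65e-05), and so did Idi1 (3.37 to 4.54 CPM, -0.50, edgeR adjusted p = 0.0209). The Idi1 call was lost without non-stroked WT library 5 or delayed library 3_5 or 5_5 (edgeR adjusted p from 0.0508 to 0.0875), and with cohort as a covariate its difference was -1.05 (edgeR adjusted p = 0.00832). The other 5 members passed with that covariate, with Hmgcs1 at -0.75, Sqle at -0.78 and Dhcr7 at -0.38 (edgeR adjusted p = 0.00507, 0.00317 and 0.0163), where 3.29% of all genes were called lower. Summed neuron markers were at 4283 to 5260 CPM in these libraries, below the other stroked groups' medians. Against non-stroked WT samples 5 of 6 neuron and 6 of 6 cortical projection neuron markers were lower (medians -0.67 and -1.42), and 5 of 6 microglia, 6 of 6 macrophage and 5 of 5 fibroblast markers were higher. Choroid plexus markers summed to 596 to 846 CPM in 4 of the 5 libraries and to 15.1 CPM in the other. The part of cell makeup was not tested.

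Between delayed tacrolimus and untreated stroke no member was called by edgeR or DESeq2, where 0% of all genes passed by edgeR, 0.047% were higher and 0.229% lower by DESeq2, and 3455 had an unadjusted p under 0.05. The differences ran from -0.27 in Fdft1 (95% interval -0.52 to -0.02), the 1 member with an unadjusted p under 0.05, to 0.18 in Idi1, and the intervals of Dhcr7 (-0.17 to 0.10) and Srebf2 (-0.21 to 0.14) were the narrowest. Within the TF cohort the median was -0.05. Between the 2 start days, 4 members were lower with the delayed start (9.96% of all genes): Fdft1 (-0.49, edgeR adjusted p = 0.0142), Hmgcs1 (-0.38, edgeR adjusted p = 0.0202), Sqle (-0.38, edgeR adjusted p = 0.0144) and Srebf2 (-0.30, edgeR adjusted p = 0.0261). No member's ranges were apart in that comparison, against 17.8% of all genes. In the same comparison 5 of 6 neuron and 5 of 6 cortical projection neuron markers were lower, and 5 of 6 microglia, 3 of 6 macrophage, 5 of 5 fibroblast and 3 of 6 choroid plexus markers were higher, and their part in the members' difference was not tested. The count of members was 0 within the TF cohort (median -0.28), with only these groups in the fit, without 5m_1 or without 1_5, where 0% of all genes were called in either direction. With only these groups the differences were -0.48 for Fdft1, -0.36 for Hmgcs1, -0.36 for Sqle and -0.28 for Srebf2. The count was 1 with cohort as a covariate (4.13% of all genes lower) and 2 without delayed library 3_5 or 5_5 (6.41% and 3.89%). The members that lost their call with the covariate stood at -0.35 (Hmgcs1), -0.33 (Fdft1) and -0.25 (Srebf2). Without 3_5 or 5_5, Hmgcs1 stood at -0.34 and -0.35 and Srebf2 at -0.27 and -0.27. Without both 5m_1 and 1_5 the median was -0.01.

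Some of the other enzymes of the pathway were lower after stroke as well. Together with the 5 enzymes among the members, 19 enzymes of cholesterol synthesis are reported, and 11 were lower and none higher in stroked WT mice, 8 lower and none higher in Rag2-/- mice, and 8 lower and 1 higher in NSG mice, where 11.6%, 1.53% and 8.89% of all genes were called lower. Of the 14 others, 6, 5 and 4 were lower, with medians of -0.25, -0.34 and -0.18. Cyp51, lanosterol demethylase, fell from 64.1 to 41.7 CPM in WT mice (-0.62, edgeR adjusted p = 8.47e-05), by 0.48 in Rag2-/- and by 0.36 in NSG mice. Sc5d, a desaturase of the last steps, fell from 75.3 to 57.0 CPM in WT mice (-0.40, edgeR adjusted p = 0.000468), fell by 0.26 in NSG mice, and was at -0.25 in Rag2-/- mice (edgeR adjusted p = 0.0731). Nsdhl, which removes the methyl groups at carbon 4, fell by 0.33 on the log2 scale for the WT genotype, by 0.41 for Rag2-/- and by 0.29 for NSG. Lss, lanosterol synthase, fell by 0.57 in NSG mice (edgeR adjusted p = 0.000355) and was at -0.17 in WT mice (edgeR adjusted p = 0.147). The enzyme that rose in NSG mice was Ebp, a sterol isomerase (0.39, edgeR adjusted p = 0.0209, and 0.00 in WT mice), and it is named after its value was seen. Compared directly, the stroke change differed between NSG and WT mice in 0 of the 14 other enzymes, Lss and Ebp among them, where 0.0294% of all genes passed. In WT-Tacr and WT-Tacr delayed mice 5 and 13 of the 19 were lower and 1 and 2 higher than in non-stroked WT samples, where 2.36% and 27.6% of all genes were lower.

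**Figure D4:**
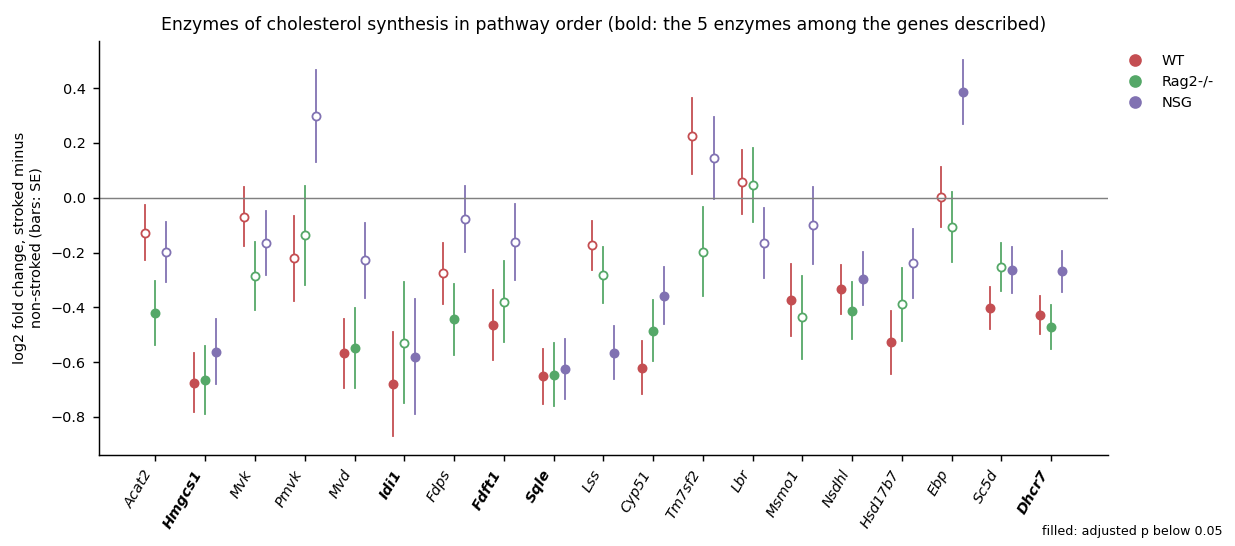
Log2 fold change after stroke (with SE) of 19 enzymes of cholesterol synthesis in pathway order, for WT, Rag2-/- and NSG mice, filled where the edgeR adjusted p was below 0.05, members in bold. In WT mice 16 of the 19 values are negative and 11 are filled, in Rag2-/- mice 18 and 8, and in NSG mice 16 are negative, 8 pass as lower and 1, Ebp, passes as higher.

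Genes around the SREBP-2 circuit did not all follow Srebf2. Of 5 other genes of SREBP control, 1 was higher in each of WT, Rag2-/- and NSG mice, and 1, 0 and 1 were lower. Over all genes 15.2%, 6.71% and 13% were called higher and 11.6%, 1.53% and 8.89% lower. Srebf1, which encodes SREBP-1 and serves fatty acid synthesis more than sterols, rose from a mean of 47.1 to 82.7 CPM in WT mice (0.81, edgeR adjusted p = 6.84e-05), by 0.72 in Rag2-/- and by 0.59 in NSG mice, opposite to Srebf2. Scap fell in WT mice (-0.18, edgeR adjusted p = 0.0352) and did not pass in Rag2-/- or NSG mice, so the gene lower in NSG mice was another of the 5. Insig2, the second INSIG gene, was at 0.23 in WT mice (edgeR adjusted p = 0.152), in contrast to the fall of Insig1. Of 4 SREBP-2 target genes around sterol uptake, 1 was lower and none higher in each of WT, Rag2-/- and NSG mice. The list medians were -0.40, -0.59 and -0.09, and 3, 4 and 2 of the 4 values were negative. Stard4, a sterol carrier gene and the SREBP-2 target that passed, fell by 0.67, 0.69 and 0.63 on the log2 scale in WT, Rag2-/- and NSG mice (edgeR adjusted p = 0.0017, 0.0109 and 0.00673). Of 15 genes of cholesterol efflux and turnover 8, 5 and 9 were higher in WT, Rag2-/- and NSG mice and 1, 0 and 0 lower, where 15.2%, 6.71% and 13% of all genes were called higher. Apoe, the main apolipoprotein gene of the brain, rose from 1049 to 3205 CPM in WT mice (1.61, edgeR adjusted p = 5.45e-05), Abca1, which loads cholesterol onto apolipoproteins, from 45.4 to 161 CPM (1.83, edgeR adjusted p = 0.000127), and Ch25h, which makes 25-hydroxycholesterol, by 2.84 (edgeR adjusted p = 6.84e-06). Apoe and Ch25h are also made by microglia and macrophages, whose markers rose in the same mice. Of 10 fatty acid synthesis genes 2 were lower in WT mice (Elovl6 -0.51 and Acss2 -0.35), 1 lower and 1 higher in Rag2-/- mice, and 2 lower in NSG mice (Acly -0.44 and Fasn -0.38), against the same 11.6%, 1.53% and 8.89% of all genes lower.

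Between genes, levels were set side by side as CPM per kilobase of exon (RPKM). In non-stroked WT samples Hmgcs1 was highest at 58.6 ± 2.89 RPKM (SD, n = 4), followed by Srebf2 at 39.3 ± 1.06, Fdft1 at 19.4 ± 0.325, Insig1 at 17.2 ± 1.47, Sqle at 9.44 ± 0.257, Dhcr7 at 5.92 ± 0.165 and Idi1 at 1.58 ± 0.233 RPKM, a 37.1-fold span. The same order of means held in 7 of 8 groups, the exception being WT-Tacr delayed, where Insig1 (12.3 RPKM) stood above Fdft1 (11.7 RPKM). Fdft1 and Insig1 overlapped over single libraries in 6 of 8 groups, Hmgcs1 and Srebf2 in both tacrolimus groups, and Sqle and Dhcr7 in WT-Tacr delayed. Every other pair of neighbours was apart in every group.

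Over the 29 libraries the members rose and fell together to differing degrees, in values that hold the differences between groups as well as those within them. Hmgcs1 and Sqle were the closest pair, with Pearson's r of 0.968 on log2 CPM and 0.875 after each group's mean was taken off. Idi1 and Fdft1 were the least alike, at 0.406 and -0.0456. Both share 50-base sequences with other genes, but so does Hmgcs1 (11.6% of its own), and a link to r was not tested. The mean r of a member with the other 6 ran from 0.848 for Hmgcs1 to 0.608 for Idi1. Of 17024 other genes, the 10 closest to the members' mean standardised level included Ugcg (r = 0.931), Atf2 (0.926), Hspa4l (0.923), Ppp2r5e (0.922), Pcdhac2 (0.918), Elavl2 (0.915), Rab27b (0.915) and Cyp51 (0.913). Of these, Cyp51 is an enzyme of the same pathway, and it became the closest gene of all when the group means were taken off (0.792). Stard4 stood 42nd (0.889), while the pathway genes Ebp (-0.0113), Lbr (-0.286) and Tm7sf2 (-0.323) did not follow the members. These libraries share cohort, depth and cell makeup, and the values are descriptions without a test.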

How the data were processed

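Poly(A) RNA of mouse brain was sequenced from 29 samples in 8 groups. The authors deposited raw read counts per Ensembl gene for each sample. Aligner, counter, genome build and strand setting are not given in the sources used here. Nothing in the labels says that each library is a separate mouse beyond its number, so p-values measure the spread between these samples. Replicate pairs of every group differed by more than sampling noise (lowest chi-square per gene 7.95). Names, positions and exon lengths came from GENCODE M21 (GRCm38), which held 25712 of 25746 identifiers. Groups were taken from the labels.

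Counts were fitted with edgeR 4.0.16 in R 4.3.3 (filterByExpr by group, TMM, quasi-likelihood test), with 8 groups and 29 samples in 1 fit and Benjamini-Hochberg adjustment over 17031 genes per comparison. A gene was called at an adjusted p below 0.05. CPM (counts scaled to the TMM-adjusted library size) served within genes and RPKM (CPM per kilobase of exon) between genes. The prior count of log2 CPM was 2. Total counts ran from 17789044 to 43403413 per sample. Scripts were tested on simulated data.

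Alternatives were RLE scaling, no filter, DESeq2 1.42.0, the compared groups alone, cohort as a covariate, each cohort alone, a replicate block, a fold threshold, and leaving out each library. Further ones were added after seeing the data: leaving out 2 WT-Tacr libraries, leaving out libraries rich in choroid plexus markers, and that marker level as a covariate. The members and gene lists were chosen with earlier results of these data known. Named genes were the members, up to 4 called genes with the smallest p of each list, Cyp51, Abca1, Apoe, Srebf1, Scap and Insig2, and the 10 genes most like the members. Ctsb, Gfap, Ebp, Lbr, Tm7sf2 and pathway genes outside this rule were named after their values were seen. Some genes under this rule and in these lists are not reported here, and the list counts leave them out.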

Additional observations from a re-analysis of the deposited data

How the results depend on the processing

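The number of members called, in each comparison, changed as follows. With an absolute log2 fold change above 1 required, it was 0 in every comparison. With only the compared groups in the fit, it was 2 for stroke in NSG mice, 0 for WT-Tacr against non-stroked WT samples, 2 for non-stroked NSG against WT mice, 0 for delayed against acute tacrolimus and 0 for stroked NSG against WT mice. With cohort as a covariate, these last 2 were 1 and 0, and WT-Tacr against non-stroked WT samples gave 0. Calls over all genes moved with these settings: with only the compared groups 0.384%, 0.139%, 7.96% and 0% of all genes were called lower in the first 4 comparisons named, and 0.954% higher in the last. Within Imm2, WT-Tacr gave 0 and stroked NSG against WT mice 0, and within TF, delayed against acute tacrolimus gave 0. Stroke in Rag2-/- mice gave 6 calls in place of 5 with only the compared groups, with cohort as a covariate and within Imm2, with Fdft1 gained (edgeR adjusted p = 0.019, 0.036 and 0.0292). In these fits 4.62%, 3.08% and 2.13% of all genes were called lower in place of 1.53%. With no filter on low counts Idi1 in NSG mice and Insig1 with WT-Tacr lost their calls (edgeR adjusted p = 0.0614 and 0.0613). DESeq2 called 2 members between stroked NSG and WT mice. Leaving out 1 library at a time gave 7 calls in each case for stroke in WT mice, 4 to 5 in Rag2-/-, 4 to 6 in NSG, 0 to 4 in WT-Tacr and 6 to 7 in WT-Tacr delayed mice. It gave 0 to 1 for non-stroked NSG against WT and against Rag2-/- mice, 0 to 2 for stroked NSG against WT mice, 0 to 4 for delayed against acute tacrolimus and 0 to 3 for WT-Tacr against stroked WT mice. Meanwhile the share of all genes called lower ran from 5.81% to 13.5% for stroke in WT, 0.174% to 1.36% in Rag2-/-, 2.9% to 12% in NSG, 0.0348% to 9.28% in WT-Tacr and 24.3% to 26.4% in WT-Tacr delayed mice. For non-stroked NSG it ran from 3.65% to 4.36% against WT and from 2.08% to 3% against Rag2-/- mice. For delayed against acute tacrolimus it ran from 0% to 18.1%. For stroked NSG against WT mice 3.74% to 8.65% were called lower and 3.39% to 9.53% higher. For WT-Tacr against stroked WT mice 0% to 2.44% were called higher. The median ran from -0.52 to -0.27 for stroke with WT-Tacr and from -0.049 to 0.051 for stroked NSG against WT mice, with sign changes at 0.0073, 0.012 and 0.051.

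Without libraries 5m_1 and 1_5, the median was -0.53 for WT-Tacr against non-stroked and -0.083 against stroked WT mice, and delayed against acute tacrolimus gave 0 calls (median -0.015). Without the libraries rich in choroid plexus markers, calls were 0 in all comparisons but WT-Tacr delayed against non-stroked WT samples, with 1, and the median of delayed tacrolimus against stroked WT mice was -0.20. These fits had 1 to 3 libraries per group, with lone delayed and non-stroked NSG libraries assumed to vary like the other groups, and 0% to 1.37% of all genes were called lower in them. With the choroid plexus level as a covariate, delayed against acute tacrolimus gave 0 calls. Fdft1 for WT-Tacr against non-stroked mice was 0.029 with cohort as a covariate and 0.069 within Imm2. Of the single-gene values under the alternatives, 519 kept direction and call, 130 lost the call, 6 gained it and 2 changed sign.

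The replicate numbers of the non-stroked groups gave no clear pairing of the samples (correlations of same-numbered deviations from -0.26 to 0.11). With 2 or 3 shared numbers per comparison, this check cannot exclude pairing. Between Rag2-/- and WT samples each shared number matched its own best (0.080 and 0.083). With the block 0.12% of all genes were called higher and 0.107% lower there, in place of 0% and 0.00632%. With the replicate block, 1 member was called for NSG against WT and 1 against Rag2-/- mice, with Insig1 at -0.37 and -0.38, and the medians of the members were -0.18 and -0.16, where 2.73% and 3.9% of all genes were called lower. The depth limits Idi1 most, at 68 reads in its lowest library.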
